A study of Rattus norvegicus with 6 samples.

Results

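The 9 genes described here are the receptors for platelet-derived growth factor (PDGF), *Pdgfra* and *Pdgfrb*, and 7 secreted growth factors, *Fgf7*, *Fgf2*, *Mdk*, *Ptn*, *Vegfa*, *Hgf* and *Ctgf*. They were chosen by gene symbol, and every probe set that the array annotation gives to one of these symbols was used, which made 10 of the 15923 probe sets on the array and 9 of the 10412 genes it names with 1 symbol. *Vegfa* has 2 probe sets and each other gene has 1. *Ctgf* is annotated under its current symbol, Ccn2. RNA came from mesenchymal stromal cells, which attach to plastic and spread like fibroblasts when mononuclear cells are cultured. Cultures from peripheral blood (rats S4, S5 and S6) were compared with cultures from the bone marrow of the same 3 animals, 1 array for each of the 6 cultures. All rats carried a GFP transgene. The sources used here do not give its promoter or the rats' strain, sex and age. The mononuclear cells were taken from a density gradient, and the cultures, at passage 2, were kept in medium with 15% fetal bovine serum. Signals are on the log2 scale of the deposited table (the base of the logarithm was read from the range of values), and differences are blood minus marrow.

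PDGF receptors are tyrosine kinases on the surface of mesenchymal cells. They bind PDGF dimers and drive proliferation and migration, and both are commonly used to recognise stromal cells and pericytes. The other members are signals that stromal cells send to their neighbours: FGF7 acts on epithelium, FGF2 on many cell types, VEGF-A on blood vessels and HGF on epithelial and endothelial cells through the receptor MET. Midkine and pleiotrophin form a small family of heparin-binding factors, and CTGF is a matrix-associated protein of the CCN family.

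In short, *Pdgfra* and *Mdk* were lower in blood cultures and passed the test, *Fgf7* was far lower in the blood cultures of rats S4 and S6 and only slightly lower in that of rat S5, and the mean differences of *Vegfa*, *Hgf*, *Fgf2* and *Ctgf* were small and did not pass. To be tested, a probe set had to lie above 8.18, the median of the whole table, on each array of at least 1 group. This left 7 probe sets of 6 members among 7625 in all. The probe sets of *Fgf2*, *Ptn* and *Hgf* did not reach it and are taken from a fit without that filter. With limma, the rat as a term and Benjamini-Hochberg adjustment over all 7625, 2 of the 7 probe sets passed an adjusted p of 0.05, both lower in blood cultures. Of all probe sets tested, 3.13% passed, and 1.74% passed as lower in blood cultures. The groups did not overlap for 4 of the 7, those of *Pdgfra*, *Pdgfrb*, *Fgf7* and *Mdk*, against 19.6% of all probe sets past the filter.

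The blood culture of rat S5 stood apart from the other blood cultures. Over the probe sets past the filter, the log2 differences between the blood arrays of rats S4 and S6 had an SD of 0.248, against 0.433 between S5 and S4 and 0.469 between S5 and S6. Marrow arrays also differed, with an SD of 0.304 between S4 and S5, 0.358 between S4 and S6 and 0.428 between S5 and S6. For members, values without rat S5 are therefore given where leaving it out changed a call or a direction, or moved a value clearly. They are given for only some of the other genes. A fit to the other 2 rats has 1 residual degree of freedom. Rat S5 was singled out on these same arrays, so an adjusted p without it depends on that choice. Of 12 stromal markers, 9 were above the median on all arrays, and the summed linear signal of the list was 45932 to 55098 in blood and 44875 to 56868 in marrow cultures. That sum is carried by the brightest genes, and single markers differed by rat. *Dcn*, decorin, read 10.55, 12.89 and 10.44 in the blood cultures of rats S4, S5 and S6, against 12.57, 12.83 and 12.63 in their marrow cultures (-1.38 ± 0.43, adjusted p = 0.2). *Lum*, lumican, read 8.11, 11.92 and 9.79 in blood cultures, against 12.01, 11.72 and 11.88 in marrow cultures (-1.93 ± 0.69, adjusted p = 0.261). For both, the blood culture of rat S5 lay at the level of marrow, as it nearly did for *Fgf7*, while those of rats S4 and S6 lay below it. *Thy1*, below the filter on both probe sets, differed by -3.30 and -2.36 in rat S4, by 2.41 and 1.74 in rat S5 and by -3.24 and -2.43 in rat S6. Of 12 leukocyte and macrophage markers, 8 were above the median on all arrays, with sums of 8638 to 10390 in blood and 5261 to 9787 in marrow cultures. The difference was widest in rat S4, with a sum of 10390 in blood against 5261 in marrow. In rat S5 the sums were 8638 against 7822, and in rat S6 they were 9878 against 9787. Of 7 endothelial markers only *Eng*, which stromal cells also express, was above the median everywhere. The endothelial sums were 1950 to 2378 in blood and 1051 to 1324 in marrow cultures. *Eng* is the brightest of these markers and carries the difference between the sums. The other 6 lay below the filter and differed by -0.16 (*Vwf*) to 0.24 (*Pecam1*). The sums of pericyte and smooth muscle markers were 3933 to 5693 in blood and 3070 to 3709 in marrow cultures. The brightest of these markers, *Tagln* and *Acta2*, carry that sum and differed by 0.93 and 0.61. *Des*, *Rgs5*, *Cspg4* and *Myh11* were lower in the blood culture of each rat, at -0.38, -0.32, -0.69 and -0.70. *Cnn1* differed by -0.01 and the probe sets of *Mcam* by 0.04 and -0.14. For 4 platelet markers the sums were 3261 to 4085 in blood and 1982 to 3716 in marrow cultures. They are carried by *Pf4* (0.49 ± 0.18, limma, adjusted p = 0.27). *Ppbp*, *Gp5* and *Itga2b* lay below the filter and differed by -0.28, -0.10 and 0.05. Over all these lists *Eng* was higher (1.62 ± 0.23, adjusted p = 0.0235) and *Fap* lower (-3.15 ± 0.44, adjusted p = 0.0232) in blood cultures, and no other marker passed. Without rat S5 they differed by 1.87 and -3.87 (adjusted p = 0.00373 and 0.000153). The *Eng* call was lost under 3 of 12 other settings and the *Fap* call under 6 of 11, without rat S4 (adjusted p = 0.25 and 0.416) and without rat S6 (0.14 and 0.169) among them. *Fap* met the filter only through its marrow cultures. None of the markers was at 0 on any array, and the part of other cells in the results was not tested. In bulk RNA, fewer cells of a type and less RNA per cell cannot be told apart.

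*Pdgfra*, the receptor that binds PDGF-AA among other dimers, was lower in the blood culture of each rat. Its probe set (1370941_at) read 8.91, 10.84 and 9.65 in the blood cultures of rats S4, S5 and S6, against 11.90, 11.94 and 11.35 in their marrow cultures. The groups did not overlap: the highest blood culture, that of rat S5, stayed 0.51 below the lowest marrow culture. Blood cultures averaged 9.80 ± 0.97 and marrow cultures 11.73 ± 0.33 (SD, n = 3 each). The difference was -1.93 ± 0.34 (SE), with a 95% interval of -2.77 to -1.09, or 3.81-fold lower in blood cultures (limma, adjusted p = 0.0444). The drop was unequal among animals, at -2.99 in rat S4, -1.10 in rat S5 and -1.70 in rat S6. Without rat S5 the difference was -2.345. The call was close to the threshold. It was lost without the rat term (adjusted p = 0.11), without the filter (0.17), with a looser filter (0.0681), with a robust prior (0.13) and with other scalings. It was also lost without rat S4 (adjusted p = 0.299) and without rat S6 (adjusted p = 0.212), and held without rat S5 (adjusted p = 0.00453). Over the 12 other settings the adjusted p ran from 0.00453 to 0.299.

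*Pdgfrb*, the receptor for PDGF-BB and PDGF-DD, did not pass. It read 10.52, 10.54 and 11.01 in blood cultures, against 11.07, 11.08 and 11.05 in marrow cultures of rats S4, S5 and S6. The marrow cultures lay within 0.03 of each other and all above the blood cultures, the nearest of which was that of rat S6, 0.04 below. The difference was -0.38 ± 0.15 (95% interval -0.74 to -0.01, adjusted p = 0.314). The name of this probe set (1370642_s_at) ends in a code that the array's maker gives to probes shared by several transcripts. Whether the differences of the receptors themselves differ was not tested. In each rat that of *Pdgfra* was the wider, with -2.99 beside -0.55 in S4, -1.10 beside -0.54 in S5 and -1.70 beside -0.04 in S6.

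**Figure D1:**
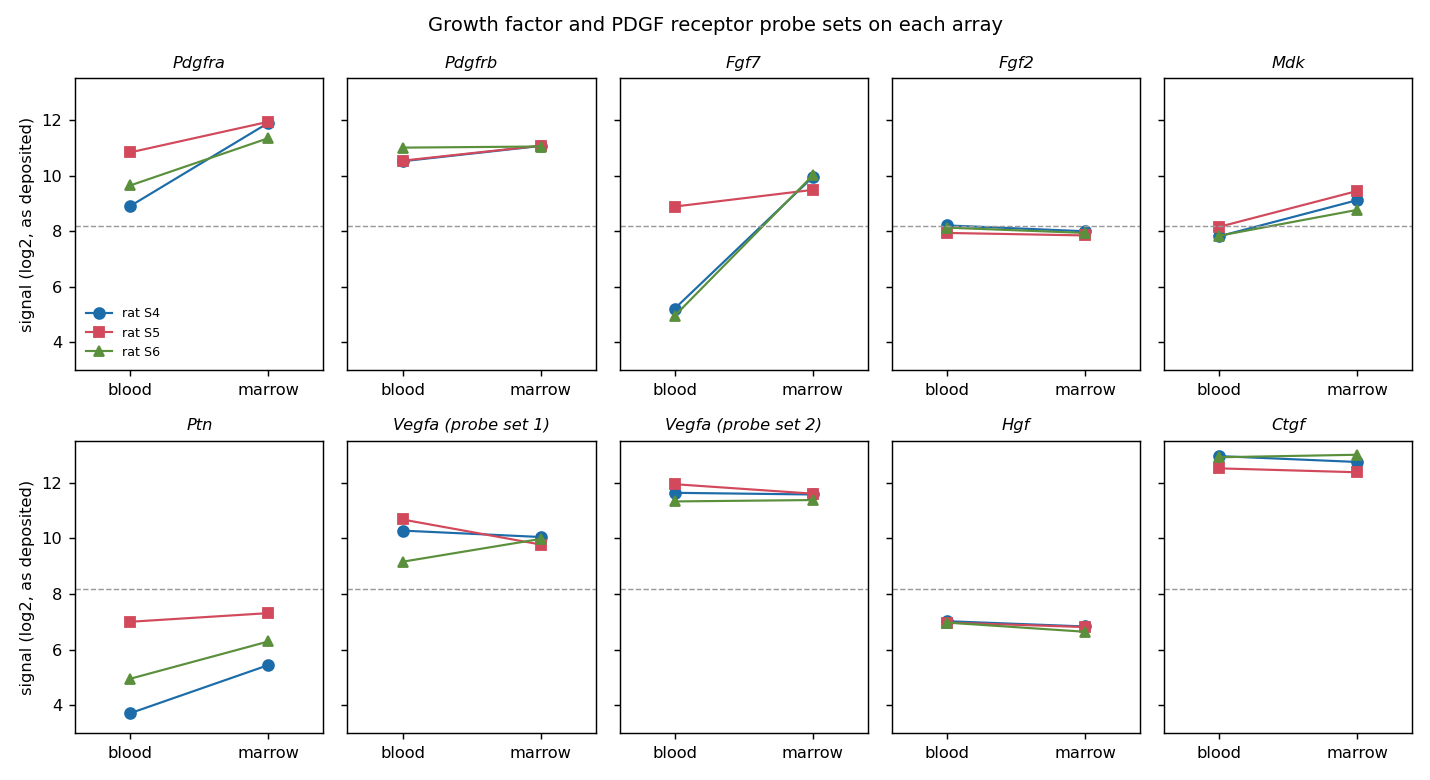
Deposited log2 signal (y axis) of each of the 10 probe sets in blood cultures (left) and marrow cultures (right). Each line joins the cultures of 1 rat, and the dashed line is the table's median of 8.18. *Pdgfra* and *Mdk* fall toward blood in every rat, while the *Fgf7* line of rat S5 is nearly flat, at 8.89 in blood and 9.49 in marrow.

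*Fgf7*, keratinocyte growth factor, is made by mesenchymal cells and read by epithelia. It was at 5.22, 8.89 and 4.96 in the blood cultures of rats S4, S5 and S6, against 9.95, 9.49 and 10.01 in their marrow cultures. Blood cultures thus split into a pair near 5 and the culture of rat S5, which was 3.80 above the mean of the other two, whereas marrow cultures lay within 0.52 of each other. The groups still did not overlap. Blood cultures averaged 6.36 ± 2.20 and marrow cultures 9.82 ± 0.28. The difference was -3.46 ± 0.83, and its 95% interval was -5.50 to -1.42. It was the widest mean difference of any member and did not pass (adjusted p = 0.112). By rat, it was -4.73 in S4, -0.60 in S5 and -5.05 in S6. Without rat S5 the difference was -4.89 with an adjusted p of 2.79e-05, while without rat S4 or S6 it was -2.82 or -2.66 and did not pass. Leaving out rat S5 raised the share of all probe sets called to 5.53%, and 3 of the 7 tested probe sets of the members then passed, those of *Pdgfra*, *Fgf7* and *Mdk*. The blood levels of rats S4 and S6 lie far below the table's median, where no background level is known, so folds there are approximate.

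*Fgf2*, basic fibroblast growth factor, stayed close to the table's median everywhere. It read 8.21, 7.94 and 8.13 in blood cultures and 8.0, 7.85 and 7.94 in marrow cultures. Blood was higher by 0.09 to 0.21 in each rat, yet the groups overlapped. The difference was 0.16 ± 0.12, with a 95% interval of -0.16 to 0.48 (adjusted p = 0.747 without the filter).

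The sequences upstream of *Pdgfra* and *Fgf7* are shown because their signals moved together over the arrays, and that of *Ctgf* because its signal differed little between groups. The likeness was not particular to this pair, since *Fgf7* ranked 23 among 458 genes by correlation with *Pdgfra*. Each sequence is the 250 bases before a RefSeq start of transcription in build GRCr8, read 5′ to 3′ on the gene's strand. They lie at chr14:33408517-33408766 (minus strand), chr3:133735377-133735626 (plus strand) and chr1:22624615-22624864 (minus strand). Capitals mark any match, on either strand, to the TATA box (letters TATAAA), the CCAAT box (letters CCAAT), the TEAD element (letters GGAATG), the AP-1 element (letters TGANTCA) or the Sp1 box (letters GGGCGG). No matches overlapped. RefSeq also holds gene models that begin 88 bases further upstream for *Pdgfra* and 1070 bases further upstream for *Fgf7*, so those windows lie partly or wholly inside the longest models.
Pdgfra: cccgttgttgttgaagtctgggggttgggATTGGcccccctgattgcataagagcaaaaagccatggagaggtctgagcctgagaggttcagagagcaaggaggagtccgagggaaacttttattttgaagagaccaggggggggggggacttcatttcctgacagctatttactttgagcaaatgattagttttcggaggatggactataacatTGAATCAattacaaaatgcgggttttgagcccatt
Fgf7: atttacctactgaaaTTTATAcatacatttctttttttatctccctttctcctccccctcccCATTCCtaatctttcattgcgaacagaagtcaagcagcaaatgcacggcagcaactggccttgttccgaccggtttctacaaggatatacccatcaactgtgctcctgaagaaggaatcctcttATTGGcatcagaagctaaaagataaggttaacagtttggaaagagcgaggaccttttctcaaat
Ctgf: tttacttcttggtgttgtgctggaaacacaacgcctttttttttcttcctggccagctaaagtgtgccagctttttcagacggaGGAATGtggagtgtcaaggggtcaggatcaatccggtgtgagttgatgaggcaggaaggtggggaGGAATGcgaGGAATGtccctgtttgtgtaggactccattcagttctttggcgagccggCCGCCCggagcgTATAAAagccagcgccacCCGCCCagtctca

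The *Pdgfra* window held 1 CCAAT match, at 221 bases before the start, and 1 AP-1 match at 35 bases. The *Fgf7* window held 1 match each to the TATA, TEAD and CCAAT letters, at 235, 188 and 64 bases. The *Ctgf* window held a TATA match at 31 bases, 3 TEAD matches at 166, 101 and 92 bases and 2 Sp1 matches at 43 and 13 bases. TEAD proteins are the DNA-binding partners of YAP, and *Ctgf* is a widely used target gene of that pathway. Among 33465 upstream windows of the same length, 12.9% held the TATA letters, 34% CCAAT, 12.1% the TEAD element, 6.34% the AP-1 element and 30.5% the Sp1 box. These matches describe letters and not binding.

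*Mdk*, midkine, gave the most even difference among the members that passed. Blood cultures read 7.82, 8.16 and 7.84 and marrow cultures 9.12, 9.45 and 8.77 for rats S4, S5 and S6. Every blood culture lay below every marrow culture, by at least 0.61. Means were 7.94 ± 0.19 in blood and 9.11 ± 0.34 in marrow cultures. The difference was -1.17 ± 0.13 (95% interval -1.50 to -0.84), or 2.26-fold lower in blood cultures (adjusted p = 0.0107). The 3 rats gave -1.30, -1.29 and -0.93, so rat S5 did not depart from the others here, and without it the difference was -1.11 (adjusted p = 0.015). The call was lost without rat S4 (adjusted p = 0.273), without rat S6 (0.0623) and without the filter (0.0708). All 3 blood values lie just under the table's median, and both *Mdk* and *Fgf7* met the filter only through their marrow cultures, a route that favours genes lower in blood.

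*Ptn*, pleiotrophin, is the other member of the midkine family. It was dim, at 3.71, 7.0 and 4.95 in blood cultures and 5.44, 7.31 and 6.29 in marrow cultures. Rat S5 gave the highest value in each group, and the groups overlapped, although each blood culture was below the marrow culture of its rat. The differences were -1.73, -0.31 and -1.34 in rats S4, S5 and S6. Their mean was -1.13 ± 0.30 (95% interval -1.89 to -0.36). It missed the threshold in limma with all probe sets kept (adjusted p = 0.281), also without rat S5, where it was -1.535 (adjusted p = 0.0653).

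*Vegfa*, the main growth factor of blood vessels, had bright signals and no consistent direction. The probe set 1373807_at read 11.64, 11.95 and 11.33 in blood cultures, against 11.58, 11.61 and 11.38 in marrow cultures. The other probe set, 1370081_a_at, read 10.28, 10.68 and 9.16 in blood cultures, against 10.05, 9.78 and 9.98 in marrow cultures. On both probe sets blood was higher in rats S4 and S5 and lower in S6. The differences were 0.12 ± 0.13 (95% interval -0.21 to 0.44, adjusted p = 0.798) and 0.10 ± 0.31 (-0.66 to 0.86, adjusted p = 0.936). Without rat S5 they were 0.005 and -0.295, which turns the direction of 1370081_a_at, and without rat S6 they were 0.20 and 0.565. Blood cultures were the more variable on 1370081_a_at, with an SD of 0.79 against 0.14 in marrow cultures.

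*Hgf*, hepatocyte growth factor, was below the median on all 6 arrays. It read 7.02, 6.97 and 6.97 in blood cultures and 6.83, 6.81 and 6.64 in marrow cultures. The groups did not overlap, with blood higher by 0.16 to 0.33 in each rat, but the mean of 0.23 ± 0.13 was small (95% interval -0.10 to 0.55, adjusted p = 0.621 without the filter).

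*Ctgf* gave a strong signal on every array. It read 12.96, 12.52 and 12.92 in blood cultures and 12.75, 12.38 and 13.01 in marrow cultures, and the culture of rat S5 was the lowest in each group. The difference was 0.09 ± 0.13, with a 95% interval of -0.22 to 0.39, or a ratio of blood to marrow between 0.858 and 1.31 (adjusted p = 0.848). The highest value in the whole table is 13.31, and whether signals near it are compressed was not tested.

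**Figure D2:**
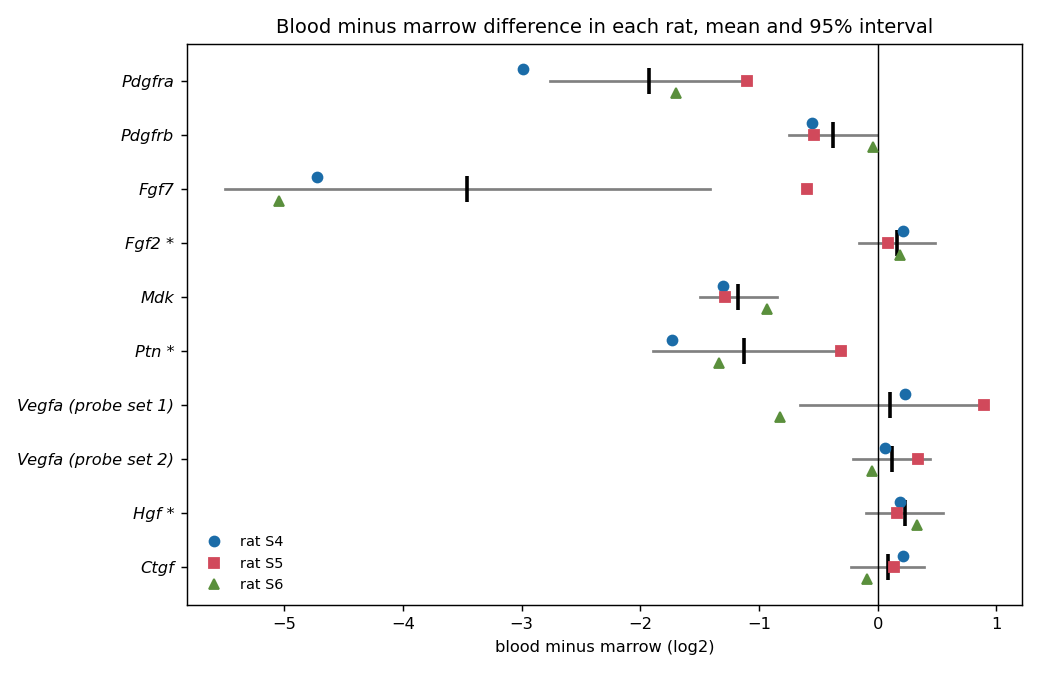
Blood minus marrow log2 difference (x axis) for the 10 probe sets, with a point for each rat, a tick at the mean and a line for the 95% interval of limma. An asterisk marks probe sets below the filter, fitted without it. *Fgf7* has rat S5 at -0.60 and the other two rats at -4.73 and -5.05, while the points of *Mdk* lie between -1.30 and -0.93.

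The genes most like *Pdgfra*, *Fgf7* and *Mdk* over the 6 arrays were looked up among genes with an SD of at least 0.5. With *Pdgfra* these were *S1pr1*, a sphingosine-1-phosphate receptor (Pearson r = 0.995), *Col15a1*, a basement membrane collagen (0.990), and *Fap*, a surface protease of activated fibroblasts (0.980). *Fap* read 6.23, 8.49 and 6.50 in blood cultures, against 10.45, 10.22 and 10.01 in marrow cultures, so here too the blood culture of rat S5 was the highest of the blood cultures. With *Fgf7* they were *Sirpa*, a cell surface receptor of the immunoglobulin family (0.992), the sulfotransferase gene *Chst12* (0.984) and *Errfi1*, a feedback inhibitor of the EGF receptor (0.984). With *Mdk* they were the aminopeptidase gene *Enpep* (0.995), the inositol phosphatase gene *Impa2* (0.987) and the collagenase gene *Mmp13* (0.984). *Pdgfra* and *Fgf7* correlated at 0.940 with each other and at 0.925 and 0.832 with *Mdk*. With 6 arrays that share the same blood to marrow contrast, r describes likeness only, and each member had 11 to 16 genes above 0.95 among 458.

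Ligands, receptors and signalling genes around the members were read from 9 lists, 1 probe set per gene. Of 128 genes on the array 71 were bright enough to be tested. Of these 1 was higher and 1 lower in blood cultures, with a median difference of -0.04. Over all 5753 genes tested, 3.02% passed and the median difference was -0.01, so the share in these lists was close to the background.

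The only PDGF ligand gene tested was *Pdgfa*, which encodes the A chain. It read 10.83, 9.73 and 11.02 in blood cultures, against 9.99, 9.56 and 10.32 in marrow cultures, higher in each rat but not past the threshold (0.57 ± 0.16, adjusted p = 0.171). *Pdgfrl*, in the same list, lay below the filter. It read 9.96, 7.88 and 9.84 in blood cultures, against 8.76, 5.83 and 9.22 in marrow cultures (1.29 ± 0.29, adjusted p = 0.22 in limma without the filter). The ligand genes *Pdgfc* and *Pdgfd*, also below the filter, differed by -0.15 and -0.08. Of 5 tested genes of the FGF ligand, receptor and carrier list, 1 was lower in blood cultures. This was *Fgf10*, a relative of *Fgf7* that shares its epithelial receptor, with signals of 7.79, 8.40 and 8.08 in blood cultures against 8.72, 9.0 and 8.78 in marrow cultures. It fell by 0.74 ± 0.13 (adjusted p = 0.0409), a call that was lost under 7 of 11 other settings, the rat term's removal among them (adjusted p = 0.101). *Fgf10* met the filter only through its marrow cultures, where it was higher, and without the filter its adjusted p was 0.151. The receptor genes *Fgfr1* and *Fgfr2* differed by -0.44 ± 0.20 and 0.02 ± 0.12 on their brightest probe sets and did not pass. A dimmer *Fgfr1* probe set was lower in the blood culture of each rat (-0.81 ± 0.26, adjusted p = 0.21). The dimmer *Fgfr2* probe sets disagreed, at -0.88, -0.22, -0.20 and 0.19, and none passed. All of these but the one at -0.22 lay below the filter.

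None of 9 tested receptors of midkine and pleiotrophin passed. *Ptprz1*, a receptor phosphatase for both factors, had the widest difference of all 71 genes. It read 5.99, 9.69 and 5.69 in blood cultures, against 9.35, 9.92 and 8.73 in marrow cultures. The blood culture of rat S5 overlapped the marrow cultures, and the mean of -2.21 ± 0.59 did not pass (adjusted p = 0.138). Without rat S5 it was -3.20 with an adjusted p of 0.000156, and it too met the filter only through marrow cultures. Without that rat 6 of the 71 genes passed, the others being *Fgf10*, *Ptprs*, *Plat*, *Fosl1* and *Bdnf*.

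None of 5 VEGF family genes passed, and *Vegfd* and *Vegfb* had the smallest p, at -0.54 ± 0.16 and -0.25 ± 0.12 (adjusted p = 0.17 and 0.403). Of 3 tested genes around HGF, *Plat* was higher in blood cultures. It encodes tissue plasminogen activator, a protease better known for dissolving clots. It read 9.56, 9.23 and 9.73 in blood cultures, against 8.35, 8.52 and 7.88 in marrow cultures. It rose by 1.26 ± 0.22 (adjusted p = 0.0444), a call that was lost under 7 of 11 other settings. *Plat* met the filter only through its blood cultures, where it was higher, and without the filter its adjusted p was 0.167. The receptor gene *Met* was below the filter. None of the 4 other CCN genes passed. *Ccn5* was lower in the blood culture of each rat, with 11.61, 10.97 and 12.37 against 12.44, 12.27 and 12.64 in marrow (-0.80 ± 0.21, adjusted p = 0.13).

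Downstream of the receptors, none of 20 receptor tyrosine kinase adaptor and kinase genes and none of 15 ERK feedback and immediate target genes passed. Their median differences were -0.01 and -0.04. The smallest p among adaptors belonged to *Cblb*, a ubiquitin ligase that limits receptor signalling, at -0.63 ± 0.13 (adjusted p = 0.0707). Among targets it was *Myc*, a growth regulator, at 0.61 ± 0.17 (adjusted p = 0.161). *Dusp6*, the ERK phosphatase, was higher in blood in each rat on its brightest probe set, at 11.73, 11.60 and 11.51 in blood cultures against 10.86, 11.19 and 11.26 in marrow (0.51 ± 0.16, adjusted p = 0.194). None of 9 other growth factor genes passed on its brightest probe set. A dimmer probe set of *Bdnf*, brain-derived neurotrophic factor, did. It read 6.21, 7.93 and 7.31 in blood cultures, against 9.33, 9.57 and 8.72 in marrow cultures (-2.06 ± 0.33, adjusted p = 0.0335), while the brighter one differed by -0.71 ± 0.16 (adjusted p = 0.0875). Both met the filter only through marrow cultures, and without the filter the dimmer one had an adjusted p of 0.141. The widest difference in this list ran the other way and lay below the filter. It belonged to 1 of 8 probe sets of *Nrg1*, neuregulin, an ErbB receptor ligand, with 8.97, 6.52 and 9.57 in blood cultures against 5.32, 4.87 and 5.71 in marrow (3.05 ± 0.47, adjusted p = 0.116 without the filter). A second *Nrg1* probe set differed by 2.25 ± 0.41 (adjusted p = 0.151), and *Tgfa*, an EGF receptor ligand, by 1.37 ± 0.38 (adjusted p = 0.303), both without the filter. The other *Nrg1* probe sets, also below the filter, differed by 0.83, 0.54 and, for the rest, at most 0.08.

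**Figure D3:**
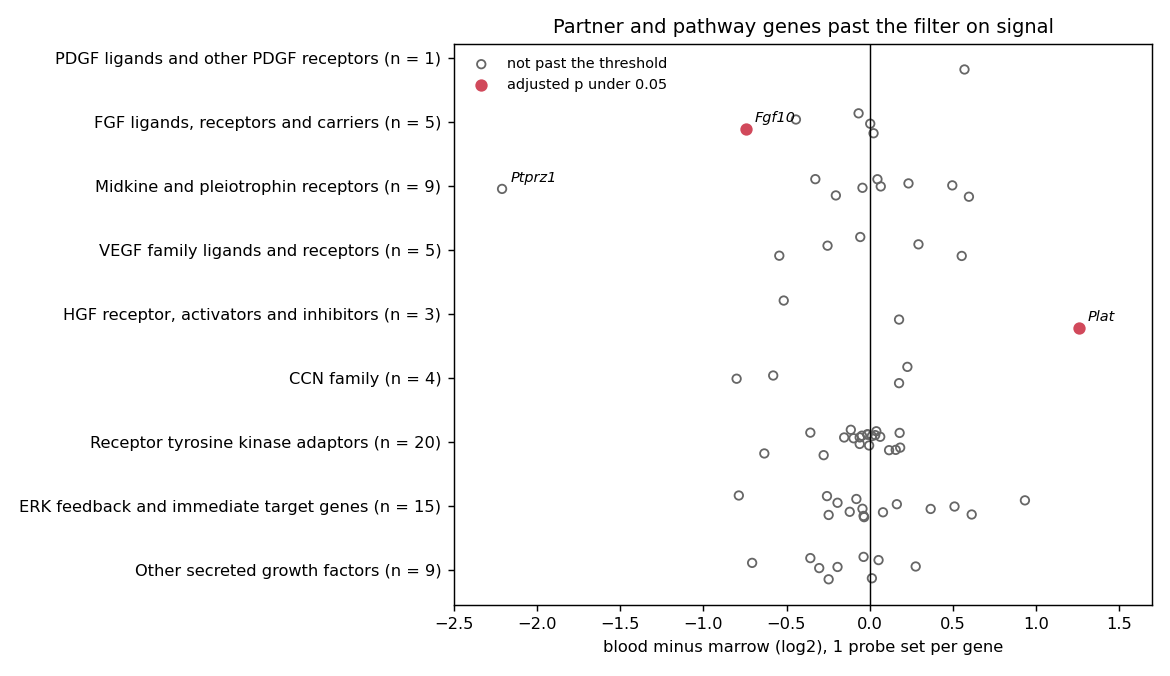
Blood minus marrow log2 difference (x axis) of the 71 partner and pathway genes past the filter, 1 point per gene, in 9 lists. Points are spread vertically within a list for legibility. Filled points mark the 2 genes past the threshold, *Fgf10* at -0.74 and *Plat* at 1.26, and *Ptprz1* at -2.21 lies farthest from 0.

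**Figure D4:**
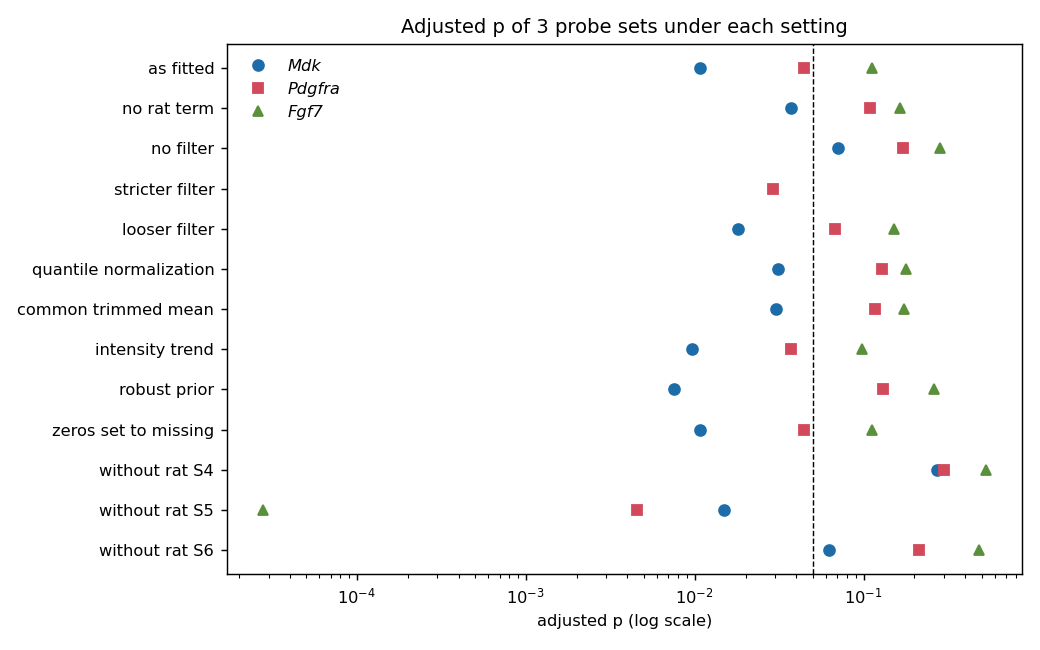
Adjusted p (x axis, log scale) of *Mdk*, *Pdgfra* and *Fgf7* as fitted and under 12 other settings, with a dashed line at 0.05. *Mdk* and *Fgf7* have no point under the stricter filter, which their blood cultures do not meet. *Fgf7* passes only without rat S5, and none of them passes without rat S4, without rat S6 or without the filter.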

How the data were processed

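The members and gene lists were chosen with earlier results of these data known. RNA (10 µg per culture) was hybridised to Affymetrix RAE230A arrays, per the labels' protocols and the file headers. The deposited values were read as log2 signals. Per the submitters' processing notes GCOS was used, and the sources used here do not give the probe summary, normalization or log base. They entered the tests unchanged (pseudocount 0). Array medians were 8.12 to 8.22. Of all cells, 86 were empty and 94 were exactly 0. The 57 control probe sets were left out.

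The contrast blood minus marrow came from limma 3.58.1 (R 4.3.3), two-sided, in a model that holds the animal constant, since both cultures of a number come from 1 rat. The correlation of deviations from the group mean between an animal's cultures was -0.25 in S4, 0.31 in S5 and 0.31 in S6. Between cultures of different rats it ran from -0.46 (blood S5, marrow S6) to 0.39 (blood S4, marrow S6). A 95% interval is limma's, unadjusted. Per the file headers, fluidics station 1 held rats S4 and S5 and station 2 rat S6, which the rat term covers. Blood arrays ran on modules 1 and 3 and marrow arrays on 2 and 4, and each blood array was scanned just before its marrow array, so module, scan order and source cannot be told apart.

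Probe sets were named from the platform annotation where it gives 1 symbol (12789). All probe sets of the members are named. Of each list, genes past an adjusted p of 0.05 and otherwise those with the smallest p are named. *Pdgfa*, *Pdgfrl*, *Pdgfc*, *Pdgfd*, *Fgfr1*, *Fgfr2*, *Met*, *Dusp6*, *Ptprz1*, *Dcn*, *Lum*, *Thy1*, *Nrg1*, *Tgfa*, the genes passing without rat S5 and the dimmer *Bdnf* probe set were partly chosen after their values were seen. So were the named endothelial, pericyte, smooth muscle and platelet markers and the dimmer *Fgfr1* and *Fgfr2* probe sets. A gene's brightest probe set past the filter stands for it. Upstream sequences are RefSeq's (GRCr8), found for 7 of the 9 genes. The fit was tested on simulated data.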

Additional observations from a re-analysis of the deposited data

How the results depend on the processing

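As fitted, 239 probe sets, 2 probe sets of the members and 2 genes of the pathway lists passed. Without the rat term (no replicate block) these counts were 144, 1 and 1, without the filter 82, 0 and 0, with the stricter filter 120, 1 and 0, with quantile normalization 135, 1 and 0, and with a common trimmed mean 142, 1 and 0. With a robust prior, 1 member and 1 pathway gene passed. With the looser filter (3 of 6 arrays above the median), added after the data were seen, 1 member and 0 pathway genes passed. Leaving out each rat gave 0 to 422 probe sets, 0 to 3 members and 0 to 6 pathway genes. The fit without rat S4 gave 0 calls in limma, with 774 probe sets at an unadjusted p under 0.05. The member differences kept their sign in every setting, except that the *Vegfa* probe set 1370081_a_at ranged over -0.295 (without rat S5) to 0.565 (without rat S6). *Mdk* lost its call under 3 of 11 settings and *Pdgfra* under 8 of 12, and the cause was not tested. An intensity trend and setting zeros to missing changed none of the calls of members. No scaling moved the median of all probe sets by more than 0.01 from 0. The number of rats limits the precision, and *Fgf2*, *Ptn* and *Hgf* were too dim to meet the filter.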
